A study of Homo sapiens with 4 samples.

Results

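The nuclear-encoded subunits of the mitochondrial respiratory chain were examined in MHCC-97H, a line of human hepatocellular carcinoma cells. They were taken as the protein-coding rows of the expression table whose symbols begin NDUFA, NDUFB, NDUFC, NDUFS or NDUFV with a number, UQCR or ATP5, or read SDHA to SDHD, CYC1 or COX4 to COX8 with a subunit letter. Of 33478 rows, 18833 are protein-coding and 82 matched. Of these, 74 stand for subunits, 5 are read-through transcripts, 1 is a pseudogene and 2, ATP5S and ATP5SL, encode proteins that are no subunit of the enzyme. The subunit rows split into 35 for complex I, 4 for complex II, 9 for complex III, 13 for complex IV and 13 for complex V. COX4I1 and 7 other chain genes fall outside the symbol rule and are given apart. The set is not complete, since NDUFA3, NDUFA6, NDUFV3, UQCR10, ATP5J and ATP5O fit the rule but are not among the matched rows. The symbols of the NDUFAF assembly factors do not match it either. Chain genes of the mitochondrial genome were not analysed here.

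The cells carried either a short hairpin RNA (shRNA) against UCK2, with 2 libraries, or a control shRNA, with 2 libraries. UCK2 encodes uridine-cytidine kinase 2, which phosphorylates uridine and cytidine in pyrimidine salvage. No hairpin sequence, clone or selection is given in the labels used here, and the letter B in the titles of both UCK2 shRNA libraries is not explained there. The comparison addresses how transcript levels in this line differ with the hairpin against UCK2.

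The respiratory chain passes electrons from NADH (complex I) and succinate (complex II) through ubiquinone, complex III and cytochrome c to oxygen at complex IV. Complexes I, III and IV pump protons across the inner mitochondrial membrane, and complex V, the ATP synthase, uses the proton gradient to make ATP. Dihydroorotate dehydrogenase, DHODH, the enzyme of pyrimidine synthesis in that membrane, hands its electrons to the same ubiquinone, so uridine made from scratch depends on the chain while uridine salvaged through UCK2 does not.

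Values are TPM, a transcript level set relative to gene length and library total, as deposited by the authors. Each log2 difference is log2(TPM + 1) in UCK2 shRNA minus control libraries, from limma over the 14038 genes that averaged at least 1 TPM, with p adjusted over all of them (Benjamini-Hochberg). TPM summed to 676811 and 643063 in UCK2 shRNA replicates 1 and 2, against 850379 and 850534 in control replicates 1 and 2. The remainder of the total to which TPM is defined lies outside the rows used here and made up 32.3% and 35.7% of UCK2 shRNA libraries, against 15.0% and 14.9% of control libraries. Values after median-ratio scaling, which sets the typical gene of each library to the same level, are therefore given beside those as deposited. The line's keratins were high, with KRT8 at 2008 and 1792 TPM in UCK2 shRNA libraries and 2250 and 3114 TPM in control libraries and KRT18 at 581 and 461, against 680 and 913 TPM. Among the other 9 hepatoma markers, AFP and ALB were at 10.5 to 29.5 TPM, TF, SERPINA1 and TTR at 4.12 to 43.4 TPM and APOA1 at 0.250 to 2.32 TPM, and GPC3, EPCAM and APOB stayed under 1 TPM in all 4 libraries. The labels' extraction text speaks of retinas, and the 10 retina markers read here reached at most 1.37 TPM.

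UCK2 itself did not separate the groups. Libraries labelled UCK2 shRNA had 120.5 and 67.8 TPM, against 135.7 and 93.6 TPM in control libraries, and the ranges overlap. Its log2 difference was -0.31 ± 0.30 (SE; adjusted p = 0.640, limma), and the sign turned under 4 alternative treatments of the data. The directions below therefore rest on the library titles. The descriptions also depart from the titles in 2 libraries: a different line number is written for control replicate 2, and UCK3 is written for UCK2 shRNA replicate 2.

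Sequence upstream of 5 members shows a feature the symbols did not choose on. The 5 were picked from the 18 subunit genes found to carry it. NRF1, nuclear respiratory factor 1, is a known activator of nuclear chain genes and binds GC-rich palindromes. The stretches below are from RefSeq, build GRCh38.p14, read 5′ to 3′ on the gene's strand, and the capitals mark the letters GCGCANGCG or their reverse complement CGCNTGCGC. NDUFS6, NDUFS7 and NDUFA11 had the lowest log2 differences of complex I, NDUFA5 had the highest, and SDHA holds 4 copies, more than the other members shown. They lie at chr5:1801321-1801406 (plus strand), chr19:1383793-1383881 (plus), chr19:5903839-5903927 (minus), chr7:123557928-123558016 (minus) and chr5:218114-218319 (plus), each upstream of a RefSeq transcription start.
NDUFS6: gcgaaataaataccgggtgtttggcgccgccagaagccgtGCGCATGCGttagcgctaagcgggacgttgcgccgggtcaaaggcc
NDUFS7: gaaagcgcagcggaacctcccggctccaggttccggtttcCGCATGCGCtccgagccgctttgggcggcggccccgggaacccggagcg
NDUFA11: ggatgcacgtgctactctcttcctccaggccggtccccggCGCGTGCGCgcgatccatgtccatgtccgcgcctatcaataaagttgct
NDUFA5: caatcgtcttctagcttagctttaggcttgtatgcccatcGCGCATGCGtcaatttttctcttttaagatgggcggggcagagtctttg
SDHA: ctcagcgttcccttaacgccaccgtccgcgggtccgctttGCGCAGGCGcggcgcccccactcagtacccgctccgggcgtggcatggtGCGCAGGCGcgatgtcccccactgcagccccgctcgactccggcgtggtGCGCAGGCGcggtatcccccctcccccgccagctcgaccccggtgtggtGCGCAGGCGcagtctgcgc

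RefSeq promoters, each 250 bases before to 50 bases after a start, were found for 59 of the 74 subunit genes, 71 promoters in all. The NRF1 letters stood in 18 of them (25.4%), against 9.64% of 22199 promoters of protein-coding genes. ETS letters (CCGGAAG or CTTCCGG), the core that GABP binds, stood in 25.4% of the members' promoters and 12.8% of all. YY1 letters (AANATGGCG or CGCCATNTT) stood in 15 of the members' promoters (21.1%) and in 4.24% of all. The median log2 difference was -0.39 over the 17 tested members with NRF1 letters and -0.34 over the 40 without. A match is a string of letters, not a shown binding site. NRF1 letters stood upstream of both NDUFS6 and NDUFA5, the ends of the complex I order. NDUFB10 and NDUFB2, which follow NDUFA11 from the low end of that order, had none. NDUFA5 had them at the start shown above but not at its other RefSeq starts.

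As a group the subunits were abundant and lay lower in the UCK2 shRNA libraries as deposited, but not one passed the test. Of the 74 subunit rows, 71 averaged at least 1 TPM and were tested. COX6A2 and COX8C, isoforms known from muscle and testis, were listed at 0 in every library, and UQCRHL stayed at or under 0.311 TPM. Limma called 0 of 71 subunits and 0 of 14038 genes (0%) at an adjusted p under 0.05, and the smallest adjusted p of a subunit was 0.294. At an unadjusted p under 0.05 limma gave 36 lower and 1 higher among the 71 subunits. Of all 14038 genes, 1962 (14%) were lower and 194 higher at that level. Among the 1098 other genes averaging at least 100 TPM, 612 were lower and 1 higher. The 36 became 9 without UCK2 shRNA replicate 2, 16 without control replicate 2 and 13 with eBayes without trend. By complex the 36 were 20 of I, 1 of II, 3 of III, 3 of IV and 9 of V. The 1 subunit higher was COX7A1. In RNA of pooled cells, fewer cells with a transcript and less of it per cell cannot be told apart.

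**Figure D1:**
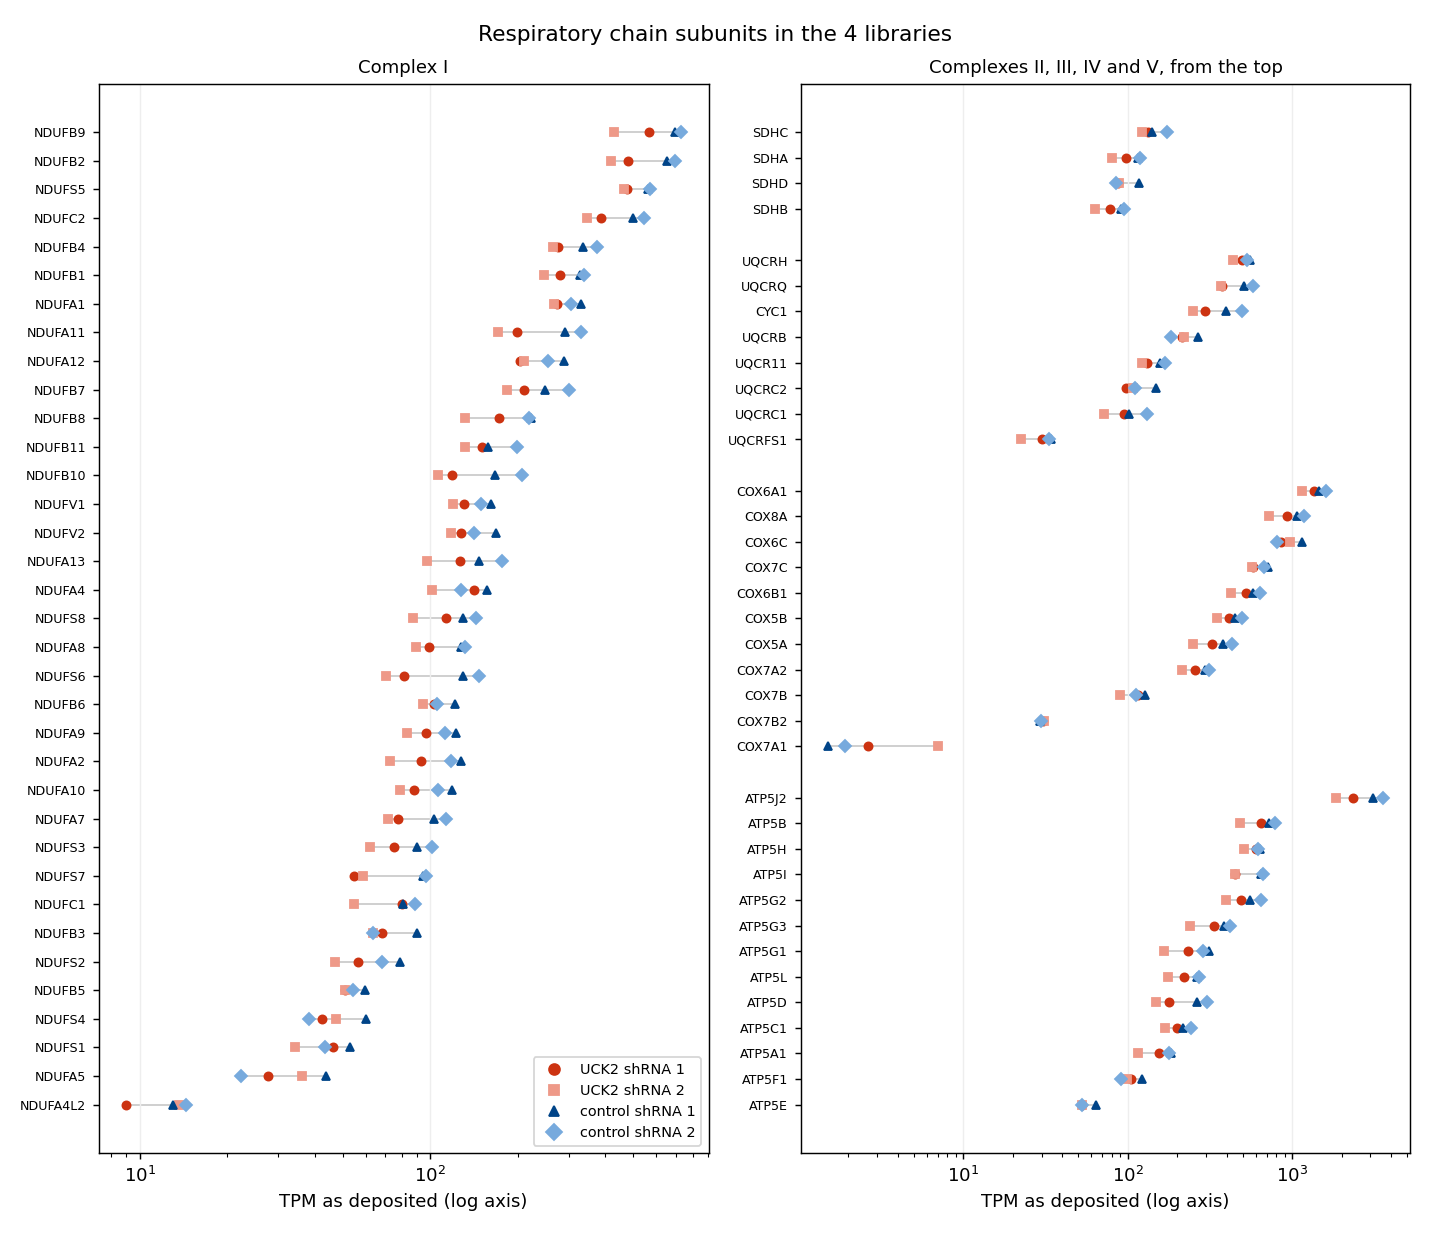
TPM of each of the 71 tested subunits on a log axis, complex I on the left and complexes II to V on the right, with 1 marker for each of the 4 libraries and a grey line from the lowest to the highest. ATP5J2 stands highest at 1842 to 3564 TPM and COX7A1 lowest, and UCK2 shRNA replicate 2 is at the low end of most lines.

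Of the 71 subunits, 68 had a log2 difference below 0, with a median of -0.39, against 74.7% of all genes tested and a median of -0.22. Both UCK2 shRNA libraries lay below both control libraries for 58 subunits (81.7%), against 44.4% of all genes. For 2 subunits, COX7A1 and COX7B2, they lay above both, as they did for 767 of all 14038 genes. The background depends on level. Among the 1098 other genes averaging at least 100 TPM, the share lower without overlap was 85.9%, 2 were higher without overlap and the median was -0.42. The 74 tested mitochondrial ribosomal proteins had a median of -0.43, and the 78 tested cytosolic ribosomal proteins had one of -0.32. The subunits' median is thus close to that of other abundant genes.

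Median-ratio scaling moved the subunits and all genes alike towards 0. The median over the subunits became -0.15, against -0.01 over all genes and -0.18 over the other genes of at least 100 TPM. Scaled values were below 0 for 54 of 71 subunits, against 50.8% of all genes and 82.9% of those other abundant genes. Lower without overlap were 17 subunits (23.9%), against 15.5% of all genes and 23.5% of the 1098 other genes of at least 100 TPM. Higher without overlap were 6 subunits, against 2251 of 14038 genes and 42 of those 1098. Limma after scaling called 0 subunits and 9 genes (0.0641%), with a smallest adjusted p of 0.772 among the subunits. The shift depended on the scaling: quantile normalization gave a median of 0.00 with 35 subunits below 0 (all genes -0.03), and rescaling without the 50 most abundant genes gave -0.04 with 40 below 0 (all genes 0.09), and under both the medians of complexes II and IV lay above 0. After median-ratio scaling an unadjusted p under 0.05 was found by limma for 3 subunits lower and 1 higher. Of all genes, 1.42% were lower and 558 were higher at that level. Of the 1098 other genes of at least 100 TPM, 29 were lower and 1 higher.

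**Figure D2:**
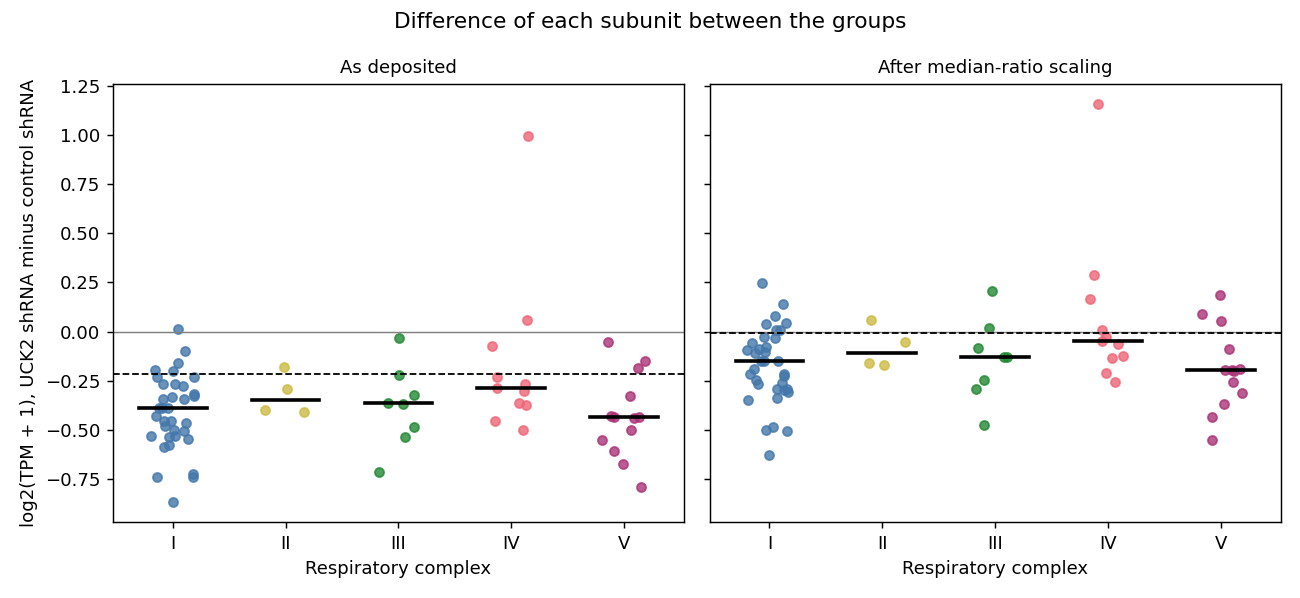
Log2(TPM + 1) difference, UCK2 shRNA minus control shRNA, of each tested subunit by complex, as deposited on the left and after median-ratio scaling on the right. Thick bars are the medians by complex and the dashed line is the median of all 14038 genes; the complex medians run from -0.44 to -0.29 as deposited and from -0.20 to -0.05 after scaling.

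Complex I, the NADH dehydrogenase, had all 35 of its subunit rows tested. By their symbols NDUFA4, since placed in complex IV, and its paralog NDUFA4L2 stay with complex I in all counts, medians and sums here. A log2 difference below 0 was found for 34, with a median of -0.39 as deposited and -0.15 after scaling, and 29 lay lower without overlap. Its 7 core subunits, which carry the flavin and the iron-sulfur clusters, were all below 0 on both scales, with medians of -0.45 and -0.22. After scaling, 11 of the 35 lay lower without overlap. Beside the counts of this and the next complexes, 74.7% of all genes were below 0 and 44.4% lay lower without overlap. After scaling these shares were 50.8% and 15.5%. For the 1098 other genes of at least 100 TPM they were 97.7% and 85.9%, or 82.9% and 23.5% after scaling.

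NDUFS6 (ENSG00000145494; chr5:1801400-1816605, plus strand, hg38), an accessory subunit beside the NADH-oxidising module, stood lowest of all subunits. It measured 81.2 and 70.2 TPM in UCK2 shRNA libraries and 130.2 and 147.8 TPM in control libraries. Both UCK2 shRNA libraries were below both control libraries, and the log2 difference was -0.87 ± 0.17 (SE; 95% interval -1.26 to -0.48; adjusted p = 0.294, limma) and -0.63 ± 0.22 after scaling (adjusted p = 0.797, limma). Without control replicate 1 its value was -0.96 and it was under the threshold (adjusted p = 0.035, limma), together with ATP5D and NDUFB10, the last named after its values were seen. That fit called 0.769% of all genes lower. It holds 1 control library, assumed to vary like the 2 UCK2 shRNA libraries, so it has no spread between controls.

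NDUFS7 (ENSG00000115286; chr19:1383527-1395589, plus strand), the core subunit whose iron-sulfur cluster hands electrons to ubiquinone, had the next lowest value. It was at 54.8 and 58.9 TPM in UCK2 shRNA libraries, against 94.3 and 97.1 TPM in control libraries. The groups stood well apart with little spread inside either, and the log2 difference was -0.74 ± 0.16 (SE; adjusted p = 0.294, limma), or -0.50 after scaling.

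The most abundant members were accessory subunits of the membrane arm. NDUFB9 measured 565 and 428 TPM in UCK2 shRNA libraries and 696 and 729 TPM in control libraries, and NDUFB2 measured 478 and 419, against 651 and 697 TPM. Neither overlapped between groups as deposited, with log2 differences of -0.53 ± 0.18 and -0.59 ± 0.15 (SE; adjusted p = 0.294 each, limma). After scaling these were -0.29 and -0.35, and NDUFB9 overlapped. At the other end NDUFA5, an accessory subunit of the matrix arm, had 27.7 and 36.2 TPM in UCK2 shRNA libraries and 43.9 and 22.3 TPM in control libraries. The control libraries enclosed the UCK2 shRNA ones, and the log2 difference was 0.01 ± 0.32 (SE; adjusted p = 0.988, limma).

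NDUFA4, first counted with complex I and since placed in complex IV, was at 142.0 and 101.5 TPM in UCK2 shRNA libraries, against 156.6 and 127.5 TPM in control libraries. Its paralog NDUFA4L2, known as a gene induced by low oxygen, was at 9.01 and 13.7 TPM, against 13.0 and 14.5 TPM. NDUFA4L2 made up 5.97% and 11.9% of the pair's TPM in UCK2 shRNA libraries and 7.66% and 10.2% in control libraries. The groups overlapped for both genes and for that share.

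Complex II, succinate dehydrogenase, had log2 differences below 0 in all 4 subunits, with a median of -0.35 as deposited and -0.11 after scaling. SDHA, the flavoprotein that oxidises succinate, was at 97.01 and 80.1 TPM in UCK2 shRNA libraries and 115.7 and 119.2 TPM in control libraries (log2 difference -0.41 ± 0.17 SE, adjusted p = 0.317, limma). SDHB, the iron-sulfur subunit, was at 78.5 and 63.1 TPM, against 91.7 and 94.7 TPM (-0.40 ± 0.17, adjusted p = 0.333, limma). Neither overlapped between groups as deposited.

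The membrane anchors of complex II lay nearer to 0. SDHC was at 132.0 and 122.1 TPM in UCK2 shRNA libraries and 140.2 and 173.2 TPM in control libraries (-0.29 ± 0.17). SDHD was at 87.3 and 88.2 TPM, against 117.1 and 84.7 TPM, and overlapped (-0.18 ± 0.19, and 0.06 after scaling). After scaling 0 of the 4 lay without overlap.

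In complex III, cytochrome bc1, 8 of the 9 rows were tested, all with log2 differences below 0, a median of -0.37 as deposited and -0.13 after scaling. CYC1, cytochrome c1, which passes the electron to cytochrome c, was lowest. It was at 294.5 and 249.7 TPM in UCK2 shRNA libraries and 398 and 498 TPM in control libraries, without overlap (-0.71 ± 0.18 SE, adjusted p = 0.294, limma; -0.47 after scaling). UQCRQ, a small accessory subunit (ENSG00000164405; chr5:132866560-132868031, plus strand), was at 376 and 371 TPM, against 507 and 579 TPM (-0.53 ± 0.15).

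UQCRH, the hinge protein and the most abundant member of complex III, was at 496 and 440 TPM in UCK2 shRNA libraries and 558 and 530 TPM in control libraries (-0.22 ± 0.15 SE, adjusted p = 0.497, limma; 0.02 after scaling). It did not overlap between groups as deposited. UQCRB, which lies by the ubiquinone site, was at 213 and 221 TPM, against 268 and 184 TPM. There the control libraries enclosed the others (-0.03 ± 0.20, and 0.21 after scaling).

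Complex IV, cytochrome c oxidase, reduces oxygen to water. Of 11 subunits tested, 9 had log2 differences below 0, the median was -0.29 as deposited and -0.05 after scaling, and after scaling 0 lay lower and 2 lay higher without overlap. COX6A1 (ENSG00000111775; chr12:120438090-120440742, plus strand), the non-muscle form of a regulatory subunit, was the most abundant. It measured 1364 and 1155 TPM in UCK2 shRNA libraries, against 1465 and 1607 TPM in control libraries (-0.29 ± 0.16 SE, adjusted p = 0.419, limma). These groups did not overlap as deposited.

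COX8A, the widely expressed form of subunit VIII, was at 926 and 728 TPM in UCK2 shRNA libraries and 1069 and 1183 TPM in control libraries (-0.45 ± 0.17 SE, adjusted p = 0.300, limma). COX5A was lowest of the complex, at 327 and 250.2 TPM, against 378 and 433 TPM (-0.50 ± 0.18, adjusted p = 0.294, limma). Both were without overlap as deposited. After scaling both stayed below 0, at -0.21 and -0.26, but overlapped. COX6B1 was at 525 and 424 TPM, against 580 and 637 TPM (-0.37 ± 0.17).

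COX7A1 (ENSG00000161281; chr19:36150922-36152869, minus strand), the heart and muscle form of subunit VIIa, had the highest log2 difference of all subunits. It was at 2.63 and 6.98 TPM in UCK2 shRNA libraries and 1.51 and 1.91 TPM in control libraries, so that UCK2 shRNA replicate 2 stood apart from the other 3. The log2 difference was 0.99 ± 0.42 (SE; adjusted p = 0.322, limma), and 1.16 after scaling (adjusted p = 0.772, limma). COX7A2, the widely expressed form, was at 255 and 214 TPM, against 295 and 312 TPM (-0.38 ± 0.16), so that COX7A1 made up 1.02% and 3.17% of the pair in UCK2 shRNA libraries and 0.509% and 0.609% in control libraries.

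COX7B2, a paralog of COX7B, gave nearly the same level in each library, 30.7 and 30.8 TPM in UCK2 shRNA libraries and 29.4 and 29.7 TPM in control libraries (0.06 ± 0.18 SE). COX7B was at 115.4 and 89.7 TPM, against 128.1 and 111.6 TPM, and overlapped. The share of COX7B2 in the pair was 21.0% and 25.6% in UCK2 shRNA libraries, against 18.7% and 21.0% in control libraries, and the groups touched. COX4I1, the main form of subunit IV, which the symbol rule leaves out, was at 485 and 438 TPM, against 529 and 615 TPM (-0.31 ± 0.16, adjusted p = 0.383, limma).

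Complex V, the ATP synthase, had a median of -0.44 as deposited and -0.20 after scaling. Without UCK2 shRNA replicate 2 the medians were -0.25 and -0.0039. All 13 subunits were below 0 as deposited and 12 lay lower without overlap. After scaling, 10 were below 0 and 4 lay lower without overlap. Of all genes, 44.4% lay lower without overlap as deposited and 15.5% after scaling. Of the 1098 other genes of at least 100 TPM, 85.9% and 23.5% did. ATP5J2 (ENSG00000241468; chr7:99448475-99466331, minus strand), subunit f of the membrane part, had the highest TPM of all subunits. It measured 2352 and 1842 TPM in UCK2 shRNA libraries and 3100 and 3564 TPM in control libraries (-0.68 ± 0.18 SE, adjusted p = 0.294, limma; -0.43 after scaling).

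ATP5D (ENSG00000099624; chr19:1241746-1244826, plus strand), the delta subunit of the rotating central stalk, was lowest of complex V. It was at 178.5 and 149.7 TPM in UCK2 shRNA libraries, against 265.8 and 303.4 TPM in control libraries, without overlap. The log2 difference was -0.79 ± 0.17 (SE; adjusted p = 0.294, limma) and -0.55 after scaling, and -0.89 without control replicate 1 (adjusted p = 0.0478, limma, again with 1 control library assumed to vary like the others). ATP5B, the catalytic beta subunit, was at 646 and 485 TPM, against 729 and 787 TPM (-0.44 ± 0.18). The 5 subunits of the F1 head and stalk had a median of -0.44, and all 5 lay lower without overlap as deposited and 1 after scaling. The shares of all genes were 44.4% and 15.5%, and those of the other genes of at least 100 TPM were 85.9% and 23.5%.

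The c subunit of the proton-driven ring is encoded by ATP5G1, ATP5G2 and ATP5G3, whose products share the mature protein. ATP5G1 was at 231.5 and 166.3 TPM in UCK2 shRNA libraries and 312.0 and 288 TPM in control libraries. ATP5G2 was at 491 and 397 TPM, against 557 and 646 TPM, and ATP5G3 at 337 and 239 TPM, against 386 and 417 TPM. The 3 genes had like log2 differences of -0.61, -0.44 and -0.50, and their shares of the summed c-subunit TPM overlapped between groups, ATP5G1 giving 21.9% and 20.7%, against 24.9% and 21.3%. ATP5F1, the b subunit of the stator, lay at the other end with 104.9 and 99.4 TPM, against 122.7 and 91.3 TPM (-0.05 ± 0.19, and 0.19 after scaling).

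**Figure D3:**
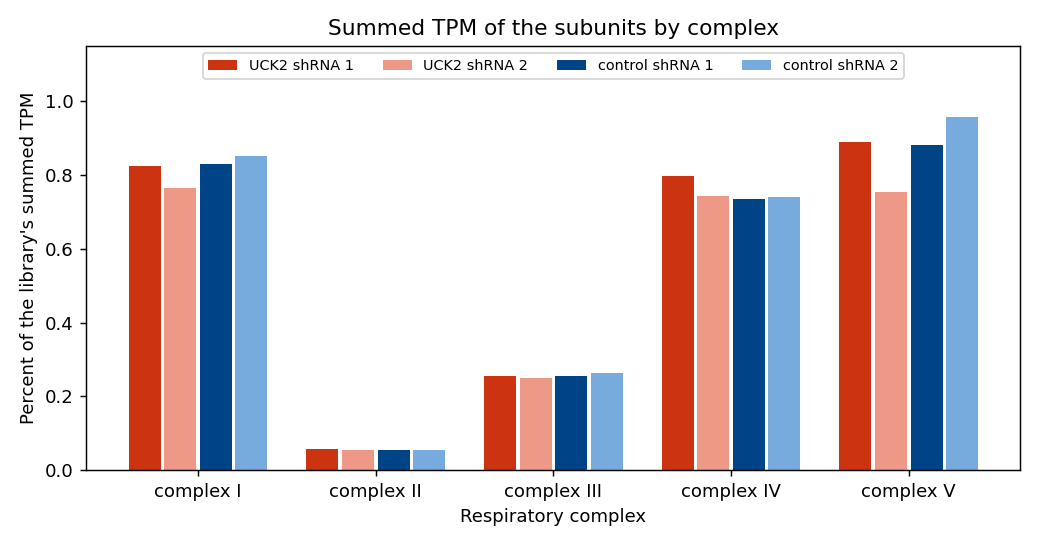
Summed TPM of the subunit rows of each complex as a percent of the summed TPM of all rows, in UCK2 shRNA replicates 1 and 2 (red tones) and control replicates 1 and 2 (blue tones). For complex V the bars stand at 0.890% and 0.754%, against 0.880% and 0.956%, and for complex IV at 0.798% and 0.744%, against 0.736% and 0.739%.

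Summed over all 74 subunit rows, TPM was 19132 and 16519 in UCK2 shRNA libraries and 23441 and 24363 in control libraries. As a share of the rows used here that was 2.83% and 2.57%, against 2.76% and 2.86%, and the groups overlapped. Complex I took 0.824% and 0.766%, against 0.830% and 0.850%, and complex II 0.0583% and 0.0550%, against 0.0546% and 0.0555%. Complex III took 0.256% and 0.250%, against 0.256% and 0.263%, where UCK2 shRNA replicate 1 equals control replicate 1 to 3 digits. Complex IV is the one whose share was higher in both UCK2 shRNA libraries than in both control libraries, and the complex I share the one lower in both.

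The libraries kept the order of the subunits. Spearman's rho of the subunit levels ran from 0.969 to 0.991 between pairs of libraries over the 71 subunits, as a description. A pair of libraries stood at the ends. UCK2 shRNA replicate 2 was the lowest library for 57 of 71 subunits, and for 47 after scaling, while control replicate 2 was the highest for 40, and for 51 after scaling. Median deviations from the subunit's mean were -0.08 and -0.30 in UCK2 shRNA replicates 1 and 2 and 0.20 and 0.23 in control replicates 1 and 2. After scaling they were 0.04 and -0.19, against -0.04 and 0.23, so that replicate 1 of each group nearly coincided. The pattern was not particular to the subunits. Over the 1098 other genes of at least 100 TPM these medians were -0.13 and -0.28, against 0.19 and 0.25. After scaling those genes had -0.003 and -0.17, against -0.05 and 0.25. The lowest and highest library was not counted over other genes. Without UCK2 shRNA replicate 2 the median over the subunits was -0.27 as deposited and -0.02 after scaling, and without control replicate 2 it was -0.38 and -0.03.

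**Figure D4:**
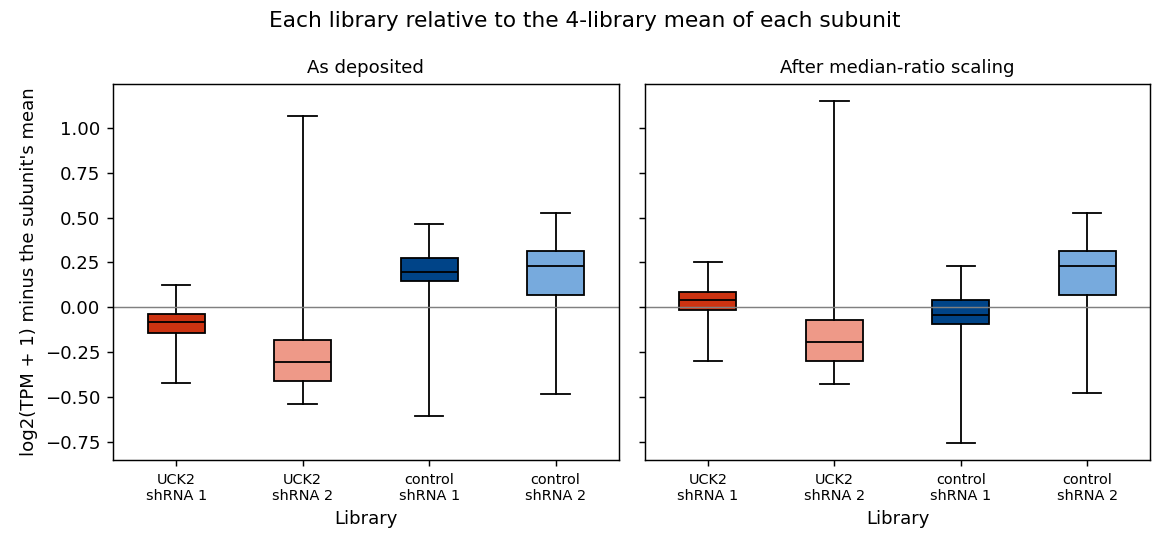
Log2(TPM + 1) of the 71 subunits in each library minus the subunit's mean over the 4 libraries, as deposited on the left and after median-ratio scaling on the right. Boxes span the quartiles with the median as a line, and whiskers reach the lowest and highest subunit; the scaled medians are 0.04 and -0.19 for UCK2 shRNA and -0.04 and 0.23 for control libraries.

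Base composition moved with the difference. Across the subunits, the log2 difference ran against the GC content of the principal transcript in GENCODE 29 (Pearson r = -0.387, Spearman rho = -0.605, n = 71 genes sharing the same 4 libraries), as it did over 13883 genes (-0.367 and -0.441). The 23 subunits under 45% GC, such as NDUFA5, UQCRB and ATP5F1, had a median of -0.23, the 29 from 45% to under 55% one of -0.43, and the 19 from 55% up, such as NDUFS7, CYC1 and ATP5D, one of -0.47. The same bands gave -0.06, -0.24 and -0.36 over all genes. Between the 2 control libraries, replicate 2 minus replicate 1, the subunits ran with GC content (r = 0.612, rho = 0.638). Between the 2 UCK2 shRNA libraries, replicate 2 minus replicate 1, the values were r = -0.013 and rho = -0.174.

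**Figure D5:**
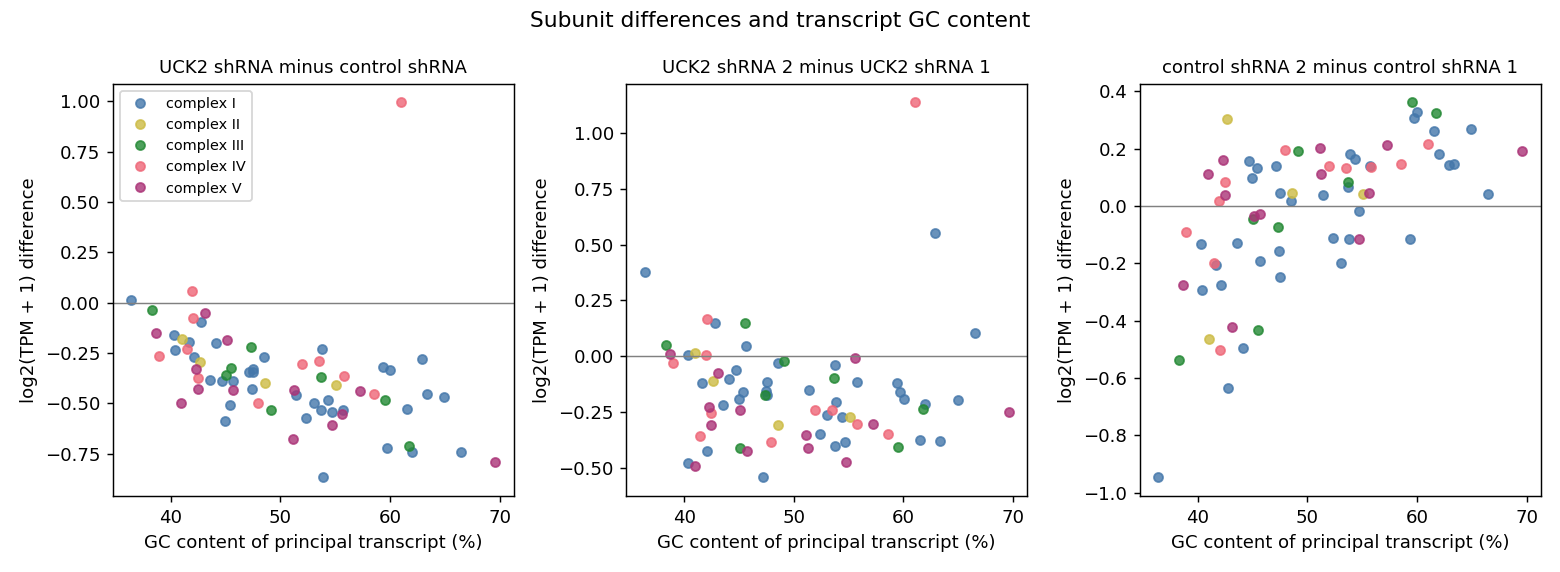
Log2(TPM + 1) difference of each subunit against the GC content of its principal transcript in percent, for UCK2 shRNA minus control on the left, UCK2 shRNA replicate 2 minus replicate 1 in the middle and control replicate 2 minus replicate 1 on the right, coloured by complex. The left cloud slopes down (rho = -0.605) with COX7A1 above it at 0.99, the middle cloud has rho = -0.174, and the right cloud slopes up (rho = 0.638).

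With a GC trend removed from each scaled library, the median over the subunits was -0.15, against -0.02 over all genes. It was -0.13 over the 1098 other genes of at least 100 TPM and -0.17 over the 74 tested mitochondrial ribosomal proteins. In that fit 59 of 71 subunits were below 0, and the share of all genes below 0 was not counted. The part of GC content in the subunit differences was not tested further. MALAT1, a long noncoding RNA kept in the nucleus, did not pass either. Its abundant row had 411 and 1240 TPM in UCK2 shRNA libraries and 161.3 and 58.8 TPM in control libraries (2.86 ± 0.59 SE, adjusted p = 0.294, limma). Another MALAT1 row, on the minus strand, went the other way at low level, with 0 and 0 TPM, against 3.08 and 1.76 TPM (-1.75 ± 0.36 SE). NEAT1, another nuclear RNA, overlapped, at 110.2 and 233.3 TPM, against 227.9 and 85.9 TPM. Their part in the result was not tested.

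Reads shared with neighbours limit some members. Of the 71 tested subunits, 31 overlap a gene on the opposite strand, and for 13 that partner averaged at least 10% of the subunit's own TPM. Examples are NDUFS1 beside EEF1B2, SDHD beside TIMM8B, NDUFA4L2 beside SHMT2 and NDUFA7 beside RPS28. The sources used here do not say if counting used strand, so these values are uncertain. The read-through rows held little: ATP5J2-PTCD1 was at 12.6 and 9.13 TPM in UCK2 shRNA libraries and 11.6 and 13.99 TPM in control libraries, and the other 4 stayed at or under 1.17 TPM.

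Chain genes outside the symbol rule numbered 8. Of these, 7 were tested, 0 passed with limma, 1 was lower at an unadjusted p under 0.05 (0 after scaling), all 7 were below 0 (5 after scaling) and the median was -0.31, or -0.07 after scaling. USMG5, a small ATP synthase subunit, was at 686 and 699 TPM in UCK2 shRNA libraries and 865 and 724 TPM in control libraries (-0.19 ± 0.16 SE).

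The factors that assemble the complexes were measured at lower levels, and limma called 0 in each list, with 0, 5, 4 and 2 lower at an unadjusted p under 0.05 for complexes I, II with III, IV and V. After scaling 0 were lower in each at that level, and 1 of II with III was higher. Beside the counts of these and the next lists, 14% of all genes were lower at that level and 74.7% were below 0, against 1.42% and 50.8% after scaling. Complex I assembly factors (15 tested, 13 below 0) had a median of -0.21, or 0.03 after scaling. Among them NDUFAF3 was at 99.2 and 79.5 TPM in UCK2 shRNA libraries, against 93.0 and 113.3 TPM, and COA1 at 90.6 and 74.8 TPM, against 91.1 and 77.6 TPM. Assembly factors of complexes II and III (8 tested, 7 below 0) had a median of -0.45, or -0.21 after scaling, with UQCC2 at 65.8 and 57.7 TPM, against 81.1 and 90.7 TPM, and UQCC1 at 46.2 and 51.5 TPM, against 61.7 and 48.8 TPM.

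The 22 tested assembly factors of complex IV, 21 of them below 0, had a median of -0.32, or -0.09 after scaling. COX14 was at 175.3 and 139.2 TPM in UCK2 shRNA libraries, against 193.4 and 209.3 TPM, and COA3 at 160.0 and 124.6 TPM, against 189.9 and 201.6 TPM. Both act early, on the mitochondrially made COX1 subunit. The 3 factors of complex V were lower without overlap, 3 of 3 as deposited and 2 of 3 after scaling, against 44.4% and 15.5% of all genes, with medians of -0.49 and -0.25. TMEM70, which helps build the c ring, was at 92.2 and 84.4 TPM, against 156.3 and 117.4 TPM, and ATPAF2 at 37.7 and 35.5 TPM, against 53.7 and 49.7 TPM.

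Ubiquinone, the carrier between the dehydrogenases and complex III, was read through its synthesis genes. Of 13 tested, 0 passed with limma, 4 were lower at an unadjusted p under 0.05 and 11 were below 0, against 0 and 7 after scaling. The median was -0.29, or -0.06 after scaling, with COQ4 at 37.8 and 34.4 TPM in UCK2 shRNA libraries, against 46.2 and 52.1 TPM, and COQ9 at 25.0 and 20.3 TPM, against 32.1 and 31.1 TPM. Of the 7 other enzymes that reduce ubiquinone or feed it, 0 passed, 1 was lower at an unadjusted p under 0.05 (0 after scaling; limma), all were below 0 (5 after scaling) and the median was -0.27, or -0.07 after scaling. DHODH was at 8.58 and 7.18 TPM in UCK2 shRNA libraries and 12.1 and 9.72 TPM in control libraries, without overlap (-0.42 ± 0.25 SE, adjusted p = 0.439, limma; -0.20 after scaling). The electron transfer flavoproteins were far more abundant, ETFB at 763 and 728 TPM, against 982 and 1313 TPM, and ETFA at 222 and 231.0 TPM, against 307 and 245 TPM.

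Regulators of chain genes and of mitochondrial DNA were read last. Of 10, 9 were tested, 0 passed with limma, 2 were lower at an unadjusted p under 0.05 and 8 were below 0, against 0 and 4 after scaling. The median was -0.21, or 0.02 after scaling. PPARGC1A, a coactivator of mitochondrial biogenesis, was at most 0.161 TPM in any library. ESRRA, a nuclear receptor that it partners, was at 64.1 and 52.9 TPM in UCK2 shRNA libraries and 88.7 and 85.1 TPM in control libraries (-0.57 ± 0.17 SE, adjusted p = 0.294, limma; -0.33 after scaling). POLRMT, the mitochondrial RNA polymerase, was at 26.1 and 27.9 TPM, against 38.3 and 36.7 TPM, without overlap. TFAM, which packages mitochondrial DNA, was at 21.4 and 28.9 TPM, against 32.8 and 20.4 TPM, and overlapped (-0.05 ± 0.28).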

How the data were processed

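RNA of 4 MHCC-97H libraries was sequenced in pairs of reads, and the authors deposited 1 table of TPM with gene identifiers, biotypes and hg38 positions. Per the submitters' processing notes, the tools were TopHat2 2.0.14, edgeR, DESeq and HTSeq and the build was hg38, with no role given. Annotation release and strand use are not given in the sources used here. TPM keeps no depth, so read totals and counting intervals are unknown.

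Groups came from the titles. Whether libraries came from separate cultures is not stated, so a p-value here reflects the spread between libraries, which may be technical. Genes averaging at least 1 TPM were kept. log2(TPM + 1) was compared with limma 3.58.1 in R 4.3.3 (lmFit, eBayes with trend, two-sided, Benjamini-Hochberg over all genes kept, threshold 0.05), and checked on simulated data. The scale understates changes of low genes. With 2 libraries a group, the smallest p of an exact permutation test is 0.333. The deviations of same-numbered libraries had a correlation of -0.214 over 14038 genes, so the numbers were not taken as pairs.

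Members and lists were chosen with earlier results of these data known. Named genes are UCK2, then in each complex the 2 of highest mean TPM, the 2 of lowest and the 1 of highest log2 difference, paralog groups, all of complex II, and in each other list the 2 of highest mean TPM, with DHODH, PPARGC1A, COX4I1 and TFAM. Transcript GC content came from GENCODE 29 and promoters from RefSeq GRCh38.p14. Alternatives covered scaling, pseudocount, filter, variance model, replicate block and each library left out. The loess span for the GC trend was 0.5.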

Additional observations from a re-analysis of the deposited data

How the results depend on the processing

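Direction and calls rest on 4 libraries, and TPM gives no depth. The number of subunits called stayed at 0 under every alternative run except without control replicate 1 (3 lower, beside 108 of 14038 genes; range over the libraries left out 0 to 3) and in the crossed block below. Other pseudocounts (0.1 and 5) moved no median of the subunits or of a complex beyond the spread between replicates. Other filters and eBayes without trend do not change the log2 difference of a gene. For them a steady median was fixed beforehand, apart from rows a filter drops, and is no check. Each fit without a library leaves a group of 1, assumed to vary like the other group. The cause of the changes below was not tested.

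Medians of the log2 difference over all subunits and over complexes I, II, III, IV and V, in that order, were as follows. After median-ratio scaling, with or without the replicate block, they were -0.15, -0.15, -0.11, -0.13, -0.048 and -0.20. Quantile normalization gave 0.0022, -0.038, 0.049, -0.025, 0.11 and -0.027. Rescaling without the 50 most abundant genes gave -0.038, -0.038, 0.0022, -0.021, 0.063 and -0.086. The alternatives added after seeing the data gave -0.018, -0.096, 0.0054, -0.054, 0.065 and -0.0039 (scaled, without UCK2 shRNA replicate 2), then -0.031, -0.079, -0.025, -0.0015, 0.048 and -0.052 (scaled, without control replicate 2), and -0.15, -0.16, -0.13, -0.12, -0.039 and -0.23 (scaled, GC trend removed). Leaving out 1 library unscaled gave ranges of -0.51 to -0.27, -0.51 to -0.34, -0.45 to -0.24, -0.48 to -0.30, -0.41 to -0.18 and -0.59 to -0.25.

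Over all genes the calls were 9 higher after scaling, 8 higher after quantile normalization and 3 higher after GC trend removal. They were 242 higher and 108 lower without control replicate 1, 32 higher and 21 lower without control replicate 2, 17 higher and 1 lower without control replicate 2 after scaling, and 0 without either UCK2 shRNA library. The replicate block called 29 genes higher and 10 lower, and 98 and 23 after scaling, with 0 subunits in both; MALAT1 was among them at 2.86 and 3.10. Crossing the replicate numbers, tried because the correlation was negative, called 91 of 14038 genes higher and 636 lower. Among the lower were 20 of the 71 subunits. That block was chosen from the pattern of these same 4 libraries, so it takes out spread by its choice. Its calls are therefore not read as results.

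UCK2 turned to 0.059 (quantile), 0.034 (without the 50 most abundant), 0.0047 (GC trend removed) and 0.096 (without UCK2 shRNA replicate 2). For other named genes, 0 of them called as deposited, these log2 differences took the other sign. After median-ratio scaling, with or without the block, they were SDHD 0.058, UQCRH 0.020, UQCRB 0.21, ATP5F1 0.19, NDUFA4 0.0057, COX7B 0.0084, USMG5 0.048, NDUFAF3 0.032, COA1 0.21, UQCC1 0.071, OPN1SW 0.047 and TFAM 0.18. After quantile normalization they were SDHC 0.12, SDHD 0.20, UQCRH 0.19, UQCRB 0.38, COX6A1 0.12, ATP5F1 0.33, NDUFA4 0.16, COX6B1 0.045, COX7A2 0.033, COX7B 0.16, USMG5 0.15, COX4I1 0.10, NDUFAF3 0.18, COA1 0.35, UQCC1 0.17, COX14 0.060, ETFA 0.16 and TFAM 0.20. Without the 50 most abundant genes they were SDHC 0.056, SDHD 0.17, UQCRH 0.13, UQCRB 0.32, COX6A1 0.063, ATP5F1 0.30, NDUFA4 0.12, NDUFA4L2 0.046, COX7B 0.12, USMG5 0.16, COX4I1 0.045, NDUFAF3 0.14, COA1 0.32, UQCC1 0.18, ETFA 0.076, OPN1SW 0.10 and TFAM 0.28. With the GC trend removed they were NDUFA5 -0.043, UQCRH 0.00020, COX6A1 0.011, ATP5F1 0.094, NDUFA4L2 0.10, USMG5 0.026, COX4I1 0.029, NDUFAF3 0.20, COA1 0.11, UQCC1 0.10 and OPN1SW 0.099. Over the 4 libraries left out in turn, the ranges that cross 0 were UCK2 -0.72 to 0.096, SDHD -0.41 to 0.051, UQCRB -0.30 to 0.23, ATP5F1 -0.26 to 0.16, COA1 -0.17 to 0.11, OPN1SW -0.19 to 0.025, TFAM -0.39 to 0.28, NDUFA5 -0.46 to 0.49, NEAT1 -0.50 to 0.89 and NDUFA4 -0.47 to 0.0067.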
